A study of Drosophila melanogaster with 6 samples.

Results

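The mitochondrial ribosomal protein genes of *Drosophila melanogaster* were described in regenerating wing imaginal discs. They were taken by name, as every gene in the 6 libraries whose FlyBase symbol begins with *mRpL* or *mRpS*. The naming rule uses no measured value, but the set was chosen with earlier results of these data known. This gave 73 of the 16455 genes, 47 with an *mRpL* symbol and 26 with an *mRpS* symbol. The study asked which transcripts differ after cell death when the lncRNA gene *CR40469* is deleted. Wing discs came from last-instar (L3) larvae, and all 6 libraries carried sal E/Pv-LHG, tub-Gal80TS and lexO-rpr. In this system a *spalt* enhancer drives the LHG activator in the central part of the disc, Gal80TS keeps it off until the temperature is raised, and LHG then switches on the proapoptotic gene *reaper* (*rpr*), here for 16 h. The 3 libraries labelled control carried nothing more. The 3 libraries labelled KO also carried the *CR40469* knockout, in which an *mCherry* cassette replaces the locus and sequence on both sides. The number of mutant lines used for these libraries is not stated. Each library was made from a pool of dissected discs, so dying, surviving and undamaged cells were measured together. The sex of the larvae is not given in the sources used here. In such tissue, fewer cells of a type and less RNA per cell cannot be told apart.

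Mitochondria keep their own ribosome, the mitoribosome, which translates the few proteins encoded in mitochondrial DNA. Those proteins are core subunits of the respiratory chain and of ATP synthase. All mitoribosomal proteins are encoded in the nucleus, made in the cytoplasm and imported. They assemble with mitochondrial rRNA into a large and a small subunit. Many have a counterpart in the bacterial ribosome, while others exist only in mitoribosomes. In flies, strong loss of mitoribosomal proteins is known to slow growth or to be lethal, and *tko*, a small-subunit gene named outside the *mRp* scheme, is the classical example.

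The target gene and the tissue were checked first. Levels are given in TPM, a share of all transcripts in a library that is corrected for transcript length, and are listed for replicates 1 to 3, first under the control label and then under the KO label. *CR40469* measured 99.61, 46.44 and 82.52 TPM against 535.93, 389.21 and 293.78 TPM. The deleted gene was therefore higher in the libraries labelled KO, against the label, and a near-identical gene, *CR34335*, exists, between which the quantification had to divide reads. *CR34335* stood at 3521.64, 2442.97 and 3201.91 TPM against 1938.29, 1928.63 and 1902.09 TPM. The direction of every difference given here rests on these labels. *rpr* was present in all 6 libraries, at 122.67 to 143.52 TPM under the control label and 144.06 to 189.81 TPM under the KO label. All 10 genes listed for the wing disc were detected. The lowest was *Ubx*, which is not specific to the wing disc, at 2.1 to 3.96 TPM. Markers of other cell types were also present. The 5 tracheal markers summed to 397.15, 443.82 and 360.4 TPM under the control label. Under the KO label they summed to 579.39, 460.71 and 453.35 TPM, without overlap. Most of that sum was *verm* and *serp*, while *btl* and *trh* reached at most 6.07 and 14.44 TPM. Of the 5 genes, only *verm* and *btl* were without overlap. Such higher values under the KO label were found for 7.9% of all genes that reached 1 TPM in any library. The 8 larval muscle markers summed to between 435.44 and 567.53 TPM in all libraries. Most of that was *Tm1*, while *Mhc* reached at most 1.71 TPM. The 4 markers of adult muscle precursors summed to between 48.81 and 71.85 TPM. The 7 fat body markers were low, with sums of 19.0, 18.85 and 11.7 TPM against 13.12, 8.2 and 8.28 TPM. Of the 6 that reached 1 TPM in any library, 3 were lower under the KO label without overlap, against 2.56% of all such genes. These were *Lsp2*, *Fbp1* and *Fbp2*. *Fbp2* stood at 3.02, 2.96 and 2.06 TPM against 0.52, 0.88 and 0.95 TPM. The 4 neuronal and 6 salivary gland markers summed to at most 12.41 and 4.46 TPM. Haemocyte markers summed to 71.7, 175.03 and 96.0 TPM under the control label and 166.0, 123.63 and 147.96 TPM under the KO label, nearly all of it *Ppn*. The part of these cells in the results was not tested.

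All 73 genes were detected. Each exceeded 20 TPM in every library, and each lay above the median level of the 8051 genes tested, which was 27.9 TPM. Tested genes were those that reached 1 TPM in any library, a filter that all 73 passed. The median mitoribosomal gene averaged 66.1 TPM over the 6 libraries, and its quartiles were 51.3 and 86.0 TPM. In the ranking of all tested genes by level, the set ran from the 51.5th to the 93.1st percentile, with a median at the 75.6th. The spread was narrow. The highest gene exceeded the lowest 7.65-fold, and the 90th percentile of the set exceeded the 10th 3.01-fold. The same percentile ratio was 6.15 for the tested cytoplasmic ribosomal protein genes, 7.38 for nuclear genes of oxidative phosphorylation and 62.7 for all tested genes. The lists of cytoplasmic ribosomal protein and oxidative phosphorylation genes also hold barely expressed genes, which widen them. Their lowest means were 1.29 and 0.48 TPM, against 29.2 TPM in the mitoribosomal set.

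*mRpL34*, the counterpart of bacterial L34, had the highest mean level, with 265.65, 178.82 and 226.86 TPM against 201.55, 223.37 and 244.08 TPM. *mRpL33*, another small large-subunit protein with a bacterial counterpart, came next with 266.36, 187.03 and 238.82 TPM against 168.24, 189.27 and 179.23 TPM. The ranges of the pair overlapped, so their order is not separated by the spread between libraries. *mRpS5*, whose bacterial counterpart sits at the site where mRNA enters the small subunit, averaged 158 TPM, and *mRpS21* and *mRpS16* averaged 138 TPM each. Only 15 of the 73 genes averaged more than 100 TPM.

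*mRpL10* was the lowest, at 31.73, 23.56 and 31.07 TPM against 26.24, 33.22 and 29.38 TPM. In all 6 libraries it was below the mean of every other gene of the set. Its protein forms the base of the stalk that recruits translation factors. *mRpL12*, which forms the mobile part of that stalk and is present in several copies per ribosome, stood at 127.17, 121.47 and 136.89 TPM against 141.11, 129.71 and 117.5 TPM. The *mRpL12* level was 3.9 to 5.38 times the *mRpL10* level in the 6 libraries. *mRpL12* is known in flies for its part in growth driven by Cyclin D and Cdk4. The other genes at the bottom of the order were *mRpL18*, *mRpS2*, *mRpL45* and *mRpL38*, with means from 38.4 to 41.4 TPM and overlapping ranges. *mRpL45* belongs to the proteins that hold the mammalian mitoribosome at the inner membrane.

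**Figure D1:**
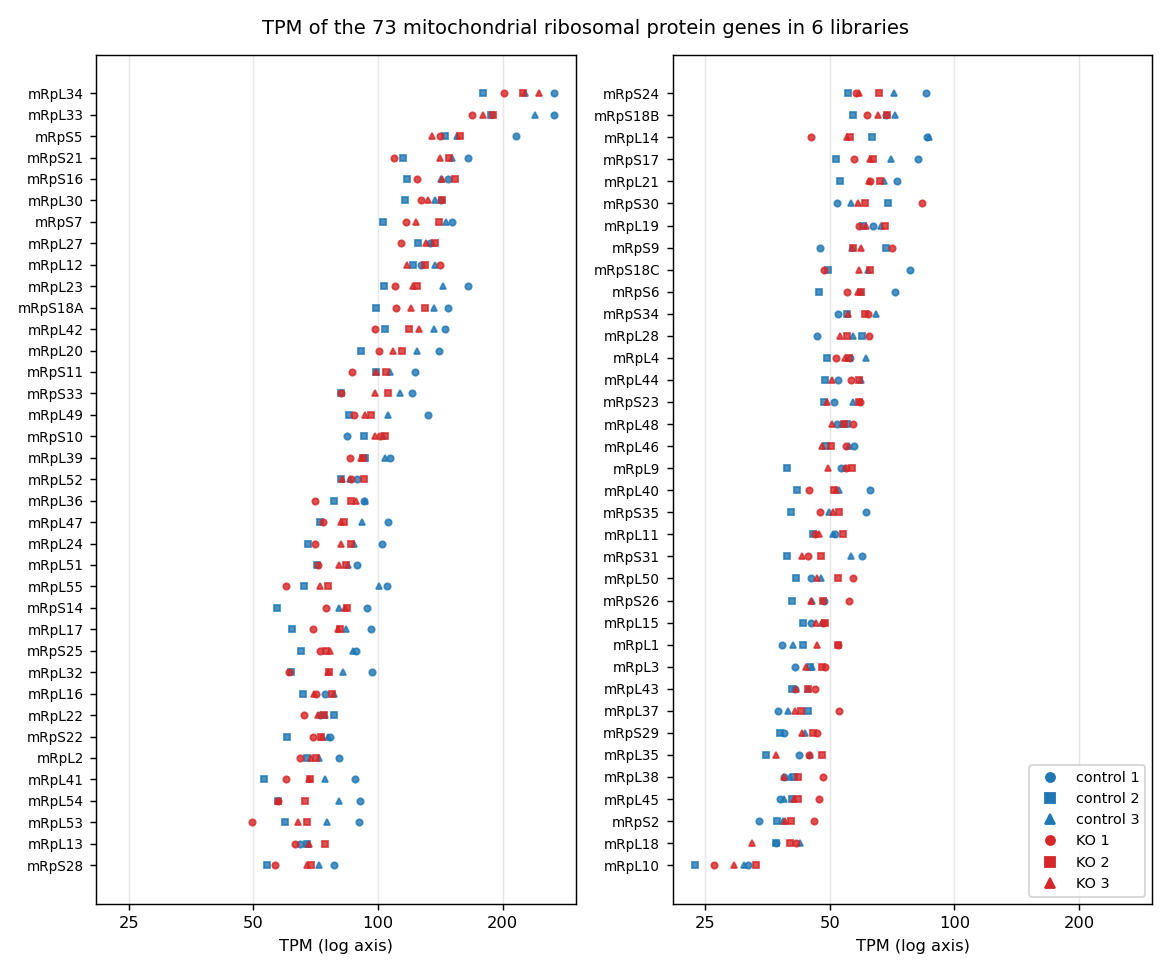
TPM (log axis) of each of the 73 mitochondrial ribosomal protein genes in the 3 libraries labelled control (blue) and the 3 labelled KO (red), ordered by mean level, with 1 symbol per replicate number. Levels run from *mRpL10* (mean 29.2 TPM) to *mRpL34* (mean 223 TPM), and in many rows control 1 lies to the right and control 2 to the left.

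Both subunits were at similar levels. By their place in mammalian structures, 49 proteins belong to the large subunit and 24 to the small, since *mRpS30* and *mRpS18A* carry small-subunit names but belong to the large subunit there. The median gene averaged 67.6 TPM in the large and 65.5 TPM in the small subunit. The summed level of the large subunit divided by that of the small was 2.0, 2.09 and 2.04 in the libraries labelled control and 2.02, 1.97 and 2.0 in those labelled KO. The ratio thus varied little between libraries, and its ranges in both groups met. The 43 proteins classed as having a bacterial counterpart had a median of 70.7 TPM and the 30 classed as specific to mitochondria a median of 60.9 TPM. *mRpS18A* and *mRpS18B* were counted among the 30, although they are related to bacterial S18.

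The 3 genes related to bacterial S18 were not all at the same level. *mRpS18A* stood at 147.23, 98.93 and 136.37 TPM against 110.18, 129.93 and 120.33 TPM. *mRpS18B* stood at 68.23, 56.82 and 71.86 TPM against 61.34, 68.67 and 65.22 TPM, and *mRpS18C* at 78.09, 49.44 and 61.87 TPM against 48.48, 62.49 and 58.68 TPM. *mRpS18A* was above both of the others in every library, while *mRpS18B* and *mRpS18C* overlapped. These 3, like *mRpL12*, were singled out for their roles after their values had been seen. The same holds for *mRpS9* and the genes with mitochondrial neighbours.

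The genes were short and simple in structure. The longest annotated transcript had a median of 783 bp (327 to 2078 bp), against 2077.5 bp for the 7718 tested protein-coding genes. The longest coding sequence had a median of 576 bp against 1362 bp, and the number of exons a median of 2 against 4. A single annotated transcript was found for 75.3% of the set and 37.9% of tested protein-coding genes. Of the 73 genes, 71 (97.3%) had no transcript of 1500 bp or more, against 31.7% of tested protein-coding genes. The shorter genes tended to have the higher levels, with r = -0.49 and rho = -0.48 between log2 length and log2 level across the 73 genes, which share the same 6 libraries. The genes were spread over the genome, with 12 on arm 2L, 12 on 2R, 17 on 3L and 21 on 3R, and the other 11 on X.

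Many started close to another gene on the opposite strand. A divergent start within 500 bp was found for 51 of 73 (69.9%), against 38.3% of tested protein-coding genes. Some of these partners also encode mitochondrial proteins. *mRpL55* lies 95 bp from *ATPsynD*, a subunit of ATP synthase, *mRpL35* 192 bp from *Mitofilin*, which organises the cristae, *mRpL18* 20 bp from *Taz*, the fly tafazzin needed for cardiolipin, and *mRpL11* 126 bp from the mitochondrial protease gene *HtrA2*. *ATPsynD* stood at 335.08, 423.04 and 375.99 TPM against 447.53, 384.22 and 387.69 TPM, lowest in control 1, where *mRpL55* was highest. Because the strandedness of the quantification is not given in the sources used here, values of genes with overlapping exons are uncertain. An exon overlap over 100 bp with another gene was found for 9 of the 73. The whole of *mRpL53* lies within exons of *CG33155* on the same strand, and their levels cannot be told apart.

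No mitochondrial ribosomal protein gene differed between the groups past the threshold. Calls needed an adjusted p (limma on log2(TPM + 1), Benjamini-Hochberg) under 0.05 together with a fold change over 1.7, and 0 of 73 genes were called, beside 0.224% of all tested genes. At an unadjusted p under 0.05 there was 1 gene of the set, beside 4.82% of all tested genes. The lowest adjusted p in the set was 0.592. Fold changes, as the level under the KO label over that under the control label, ran from 0.670 to 1.23 on the scale of TPM + 1, and 65 of 73 log2 fold changes were smaller than 0.2 in size. The standard error of a log2 fold change had a median of 0.16 (0.13 to 0.20), and 16 of 73 fold changes were larger than their own standard error. A difference of the size of this error in a single gene was not detectable with 3 against 3 libraries.

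The summed level of the 73 genes was 6369, 5000 and 6020 TPM under the control label and 5270, 5784 and 5484 TPM under the KO label. The groups overlapped, because control 2 was the lowest and control 1 the highest of the 6. The means were 5796 ± 712 TPM and 5513 ± 258 TPM (SD, n = 3 each), a ratio of 0.951. The set took 0.50% to 0.637% of all TPM, while the 92 cytoplasmic ribosomal protein genes took 38.4% to 44.4%.

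*mRpL14*, whose bacterial counterpart lies at the interface between the subunits, had the most negative fold change. It stood at 85.73, 63.09 and 86.67 TPM under the control label and 44.94, 55.96 and 54.93 TPM under the KO label. The groups did not overlap, and control 2 was the nearest to the libraries labelled KO. The log2 fold change was -0.58 (SE 0.18, unadjusted p = 0.0111, adjusted p = 0.592 by limma), and an exact two-sided permutation test gave p = 0.10, the smallest that 3 against 3 libraries allow. *mRpL14* (FBgn0040389) has 2 exons and lies on X from 2343997 to 2344649 on the minus strand of BDGP6, the assembly also called dm6, 2.22 Mb from *CR40469*. The other 10 genes of the set on X had log2 fold changes between -0.35 and 0.18, so the 11 had a median of 0.00, against -0.03 for the 62 on autosomes and 0.15 for all tested genes on X.

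The 4 next most negative fold changes belonged to genes whose groups overlapped. *mRpL55*, a protein specific to mitochondria, stood at 104.94, 66.32 and 100.51 TPM against 59.99, 75.48 and 72.57 TPM (log2 fold change -0.36, SE 0.20). *mRpL33* had a log2 fold change of -0.35 (SE 0.17), with control 2 just below KO 2. *mRpL54*, also specific to mitochondria, stood at 90.35, 57.32 and 80.27 TPM against 57.38, 66.71 and 57.39 TPM (-0.30, SE 0.19). *mRpL53*, a further protein of this kind, stood at 90.01, 59.43 and 75.33 TPM against 49.69, 67.35 and 64.07 TPM (-0.30, SE 0.20), and *CG33155*, which shares its exons, had the same log2 fold change of -0.30. In all 4 genes control 2 was below at least 1 library labelled KO, and all 4 had an adjusted p of 0.818.

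*mRpL1*, the protein of the stalk that contacts tRNA leaving the ribosome, had the most positive fold change. It stood at 38.27, 43.14 and 40.81 TPM against 52.45, 52.46 and 46.5 TPM, without overlap (log2 fold change 0.30, SE 0.13, adjusted p = 0.818). *mRpS2* stood at 33.67, 37.25 and 38.64 TPM against 45.73, 40.39 and 38.95 TPM (0.19, SE 0.14), where control 3 and KO 3 were almost equal. *mRpL50*, specific to mitochondria, stood at 44.98, 41.41 and 47.67 TPM against 56.85, 52.18 and 46.51 TPM (0.21, SE 0.14), with overlap. *mRpS30* stood at 51.9, 69.02 and 56.33 TPM against 83.58, 60.95 and 58.47 TPM (0.18, SE 0.19), a difference carried by KO 1. *mRpS29* is the fly counterpart of the mammalian death-associated protein DAP3, a GTP-binding protein of the small subunit. It stood at 38.76, 37.94 and 43.65 TPM against 46.48, 45.55 and 42.83 TPM, with overlap (0.16, SE 0.13).

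**Figure D2:**
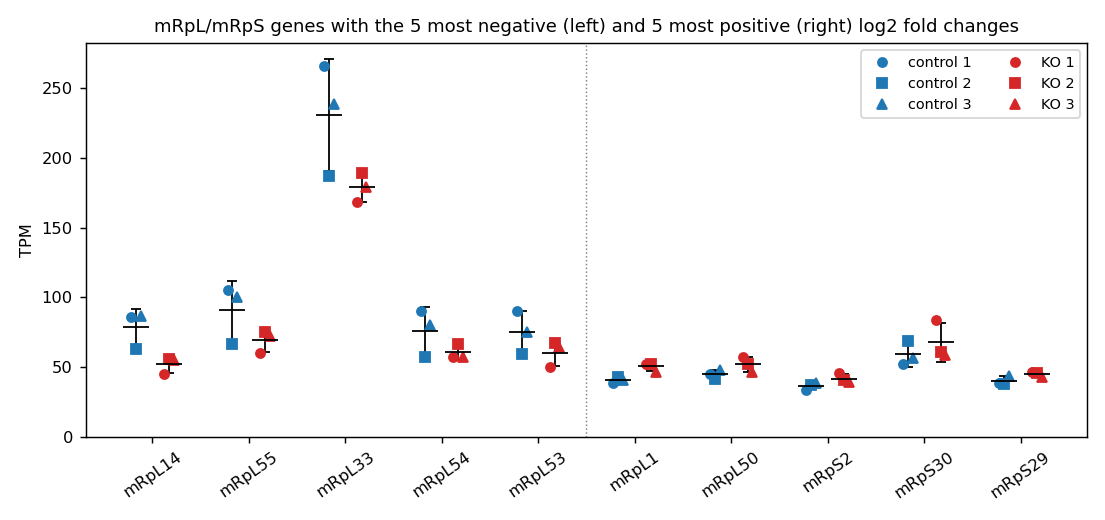
TPM per library of the 5 genes with the most negative and the 5 with the most positive log2 fold change, with the mean and SD of each group as black lines (n = 3). In the left 5 genes control 2 (blue square) lies below the other libraries labelled control, and only *mRpL14*, *mRpL1* and *mRpS2* have groups that do not overlap.

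Groups without overlap were found in 5 of the 73 genes (6.85%), against 10.5% of all tested genes. Higher values under the KO label were found for 3, *mRpL1*, *mRpS2* and *mRpL45*, against a background of 7.9%. *mRpL45* stood at 37.83, 40.48 and 38.77 TPM against 47.15, 41.84 and 40.97 TPM. Lower values were found for 2, *mRpL14* and *mRpL39*, against a background of 2.56%. *mRpL39*, a large-subunit protein specific to mitochondria, stood at 106.68, 93.15 and 103.85 TPM against 85.35, 91.76 and 91.15 TPM (log2 fold change -0.18, SE 0.13). These shares are near or below those of all genes.

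Although single genes did not pass the test, the set as a whole lay below the other genes. The median log2 fold change was -0.02 over the 73 genes and 0.13 over all 8051 tested genes, a difference of -0.15, or a ratio of 0.902. The median was also 0.13 over the 7438 genes that reached 1 TPM in every library. Of the 73 genes, 63 were below the median of all tested genes. A positive log2 fold change was found for 32 of 73 (43.8%), against 74.9% of all tested genes. Leaving out 1 library moved this count both ways, from 19 of 73 without control 2 to 43 of 73 without control 1. The median over all tested genes was then 0.19 and 0.07. TPM are relative to the sum of each library, so another scaling moves both medians. With median-ratio scaling, which sets the typical gene equal in all libraries, the median over all genes became 0.00, that over the 73 genes -0.15, and only 9 of 73 were above 0.

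By subunit and by origin the medians were close to each other. The median was -0.03 for the large subunit and -0.02 for the small. It was -0.03 for proteins with a bacterial counterpart and 0.00 for those specific to mitochondria. Without *mRpL14* the median of the other 72 genes was again -0.02. The size of the difference from all genes depended on single libraries. It was -0.30 without control 2, -0.23 without KO 2, -0.05 without control 1 and -0.03 without KO 1.

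**Figure D3:**
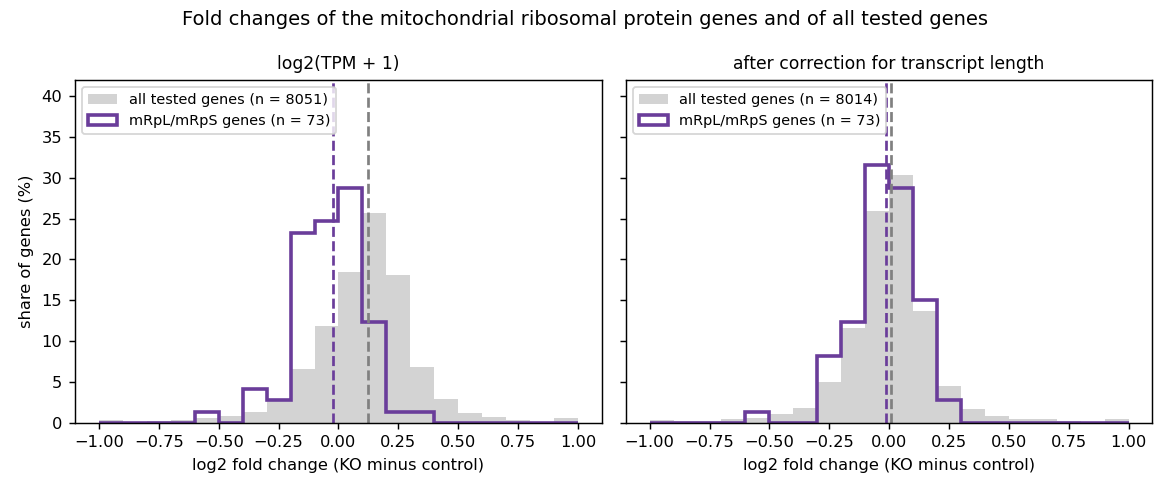
Distribution of log2 fold changes (KO minus control) of the 73 genes (purple) and of all tested genes (grey), as the share of genes per bin of 0.1 and with dashed lines at the medians. The left panel shows log2(TPM + 1), where the medians are -0.02 and 0.13, and the right panel the values corrected for transcript length, where they are -0.01 and 0.01. Values beyond the axis are counted in the outermost bins.

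The libraries differed from each other in a pattern that ran through most of the set. Control 2 was the lowest of the libraries labelled control for 58 of 73 genes and the highest for 9. KO 1 was the lowest of the libraries labelled KO for 44 genes and the highest for 18, and 42 genes were lowest in both. The genes lowest in control 2 had a median transcript of 738.5 bp and those highest there one of 1268 bp. For KO 1 the same medians were 700 bp and 916.5 bp. The 7 genes highest in both were *mRpL28*, *mRpL37*, *mRpL38*, *mRpL45*, *mRpL48*, *mRpS9* and *mRpS30*, with a median of 1293 bp. *mRpS9*, for example, stood at 47.21, 68.45 and 56.41 TPM against 70.75, 57.0 and 59.33 TPM, the opposite order of *mRpL55*. The genes listed for the wing disc, which have long transcripts with a median of 4256 bp, followed the same order as *mRpS9*. Their sums were 314.78, 550.47 and 342.55 TPM against 588.53, 378.48 and 409.91 TPM.

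Transcript length was therefore set beside the fold changes. In the 23 genes of the set with a longest transcript under 700 bp, the median deviation of a library from the gene's mean over the 6 libraries was 0.27, -0.24 and 0.14 (log2) under the control label and -0.18, 0.03 and -0.01 under the KO label. In the 5273 tested protein-coding genes of 1500 bp or more it was -0.26, 0.12 and -0.11 under the control label and 0.30, -0.02 and -0.03 under the KO label. Control 1 was the highest library for the short genes and the lowest for the long ones, where KO 1 was the highest. The 20 genes of the set from 1000 to under 1500 bp deviated by -0.01, -0.09, 0.04, 0.01, 0.03 and -0.04 in the same order of libraries.

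**Figure D4:**
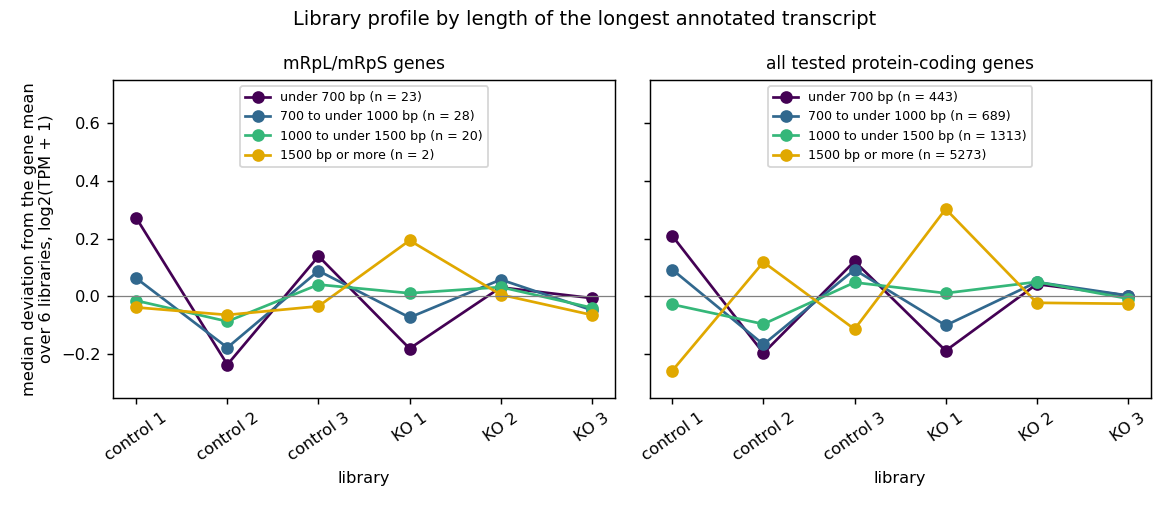
Median deviation of each library from the gene's mean over the 6 libraries, on log2(TPM + 1), in 4 classes of longest annotated transcript, for the mitochondrial ribosomal protein genes (left) and all tested protein-coding genes (right). The class under 700 bp is high in control 1 (0.27 and 0.21) and low in control 2 and KO 1 in both panels, and the class of 1500 bp or more (only 2 genes on the left) is highest in KO 1.

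Within a length class the set and all tested protein-coding genes had similar median fold changes. Under 700 bp the median log2 fold change was -0.11 for 23 genes of the set and -0.08 for 443 protein-coding genes. From 700 to under 1000 bp it was -0.01 for 28 genes and -0.02 for 689. From 1000 to under 1500 bp it was 0.04 for 20 genes and 0.05 for 1313. From 1500 bp up, where the set had only *mRpL21* and *mRpS30*, it was 0.09 and 0.17. The class under 700 bp held 31.5% of the set but 5.74% of tested protein-coding genes. Across the 73 genes log2 length and log2 fold change had r = 0.42 and rho = 0.44, and r = 0.32 without the 3 shortest and the 3 longest. Across all tested protein-coding genes r was 0.41 and rho 0.53. Genes are not independent replicates, all these values come from the same 6 libraries, and no p is given.

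With each library corrected for its trend with transcript length, a step chosen after seeing the data, the median log2 fold change was -0.01 for the set and 0.01 for all genes, a difference of -0.02. A positive value was then found for 34 of 73 (46.6%), against 52.7% of all genes. No gene of the set was called, beside 0.462% of all genes, and 5 of 73 (6.85%) had an unadjusted p under 0.05, beside 6.49%. *mRpL14* kept a log2 fold change of -0.53 and *mRpL1* one of 0.27, and the lowest adjusted p was 0.130 (*mRpL14*, by limma). Why the libraries differed by transcript length was not tested.

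**Figure D5:**
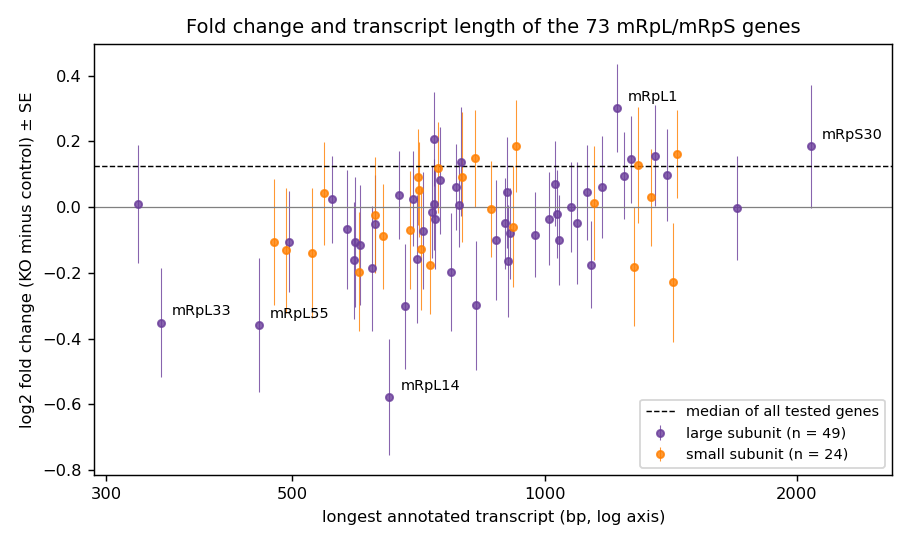
Log2 fold change (KO minus control) with its SE against the longest annotated transcript (bp, log axis) for the 73 genes, coloured by subunit, with a dashed line at the median of all tested genes (0.13). Points rise from left to right only loosely (r = 0.42). *mRpL33* and *mRpL55* lie low and *mRpL1* and *mRpS30* high, but the shortest gene, *mRpL34*, is at 0.01 and the long *mRpS5* at -0.23.

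The spread between libraries of a group also differed between genes. The SD of log2(TPM + 1) within groups had a median of 0.16 and ran from 0.059 to 0.28. It was smallest for *mRpL15*, *mRpL48* and *mRpL22*. *mRpL15* stood at 45.05, 43.17 and 47.87 TPM against 48.25, 48.6 and 46.21 TPM, so that all 6 libraries lay within a few TPM. *mRpL22*, which lines the exit tunnel of the large subunit, stood at 72.36, 78.37 and 74.26 TPM against 66.41, 74.22 and 71.61 TPM. It was largest for *mRpL55*, *mRpL41* and *mRpS14*. *mRpL41* stood at 88.08, 53.11 and 74.64 TPM against 59.76, 68.62 and 68.09 TPM, and *mRpS14* at 94.06, 56.85 and 80.52 TPM against 74.75, 84.02 and 82.98 TPM. In both, most of the spread lay between control 1 and control 2.

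The other genes of mitochondrial translation were set beside the mitoribosome. By limma 0 genes of these lists were called, beside 0.224% of all tested genes. At an unadjusted p under 0.05 there were 2 of the 87 tested cytoplasmic ribosomal protein genes, beside 4.82% of all tested genes. The other lists had no gene at that p. The small-subunit gene *tko* stood at 149.02, 102.57 and 122.37 TPM against 95.92, 114.17 and 112.38 TPM (log2 fold change -0.20, SE 0.17), and *bonsai*, the counterpart of S15, at 65.44, 82.44 and 71.53 TPM against 88.3, 73.28 and 67.99 TPM (0.06, SE 0.16). Both overlapped between groups. The 18 aminoacyl-tRNA synthetases listed for mitochondria, which load the tRNAs of this ribosome, had a median log2 fold change of 0.17. Of these, 18 of 18 were above 0, against 74.9% of all tested genes and 87.4% of tested protein-coding genes of 1500 bp or more. The median of the 18 was 0.06 after the length correction. The list includes *HisRS*, *ThrRS* and *GlyRS*, which are not named as mitochondrial only and had its highest levels. The longest transcripts of the 18 genes had a median of 2650 bp. The largest was that of *ArgRS-m*, at 7.25, 7.2 and 8.73 TPM against 12.26, 9.79 and 8.35 TPM (0.34, SE 0.17), whose exons overlap those of *mRpS9*. The 8 tested translation factors had a median of 0.09, and 0.00 after the correction. Among them the initiation factor gene *mIF3* stood at 13.37, 16.44 and 17.48 TPM against 19.08, 20.69 and 18.56 TPM, without overlap (0.29, SE 0.15). The 12 tested genes of mitochondrial DNA replication and transcription had a median of 0.12, and 0.02 after the correction.

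Other lists of short genes lay where the mitoribosome lay. The 87 tested cytoplasmic ribosomal protein genes, with a median transcript of 887 bp, had a median log2 fold change of -0.02. The 64 tested nuclear genes of oxidative phosphorylation, with a median transcript of 813 bp, had a median of -0.03. The 9 tested genes of mitochondrial protein import had a median of -0.03. Among them *Tom40* and *Tom70* were at 0.25 and 0.24, and at 0.12 and 0.11 after the length correction. *Tim9a* was at -0.16, and at -0.09 after it. *Tim17b* and *Tom20* were at -0.12 each, and the correction left both at -0.12. After the length correction the 3 medians were -0.03, -0.03 and 0.00. The medians of these 3 lists thus lay close to that of the mitoribosome, before and after the correction.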

How the data were processed

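RNA from pooled wing discs was selected for poly-A transcripts and sequenced. Per the labels, the authors aligned reads to dm6 with STAR 2.4.0j and quantified genes with RSEM 1.2.21; the paper's methods give the FlyBase annotation and keep alignments to at most 10 loci. The deposited values are TPM per gene from the authors' RSEM output, 1 file per library, and they keep no depth, so no counting interval is given. Labels number replicates but name no separate crosses, so p-values measure the spread between these libraries.

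TPM were compared with limma 3.58.1 (R 4.3.3; lmFit and eBayes on log2(TPM + 1), genotype only) for the 8051 genes that reached 1 TPM in any library, and p-values were adjusted over all of them. Fold changes on this scale are slightly understated. The script was tested on simulated data. The length correction subtracted a loess curve (span 0.5) of each library's deviation on log2 longest annotated transcript. Positions and lengths came from the Ensembl annotation of BDGP6. The naming rule took the 5 largest fold changes each way, the 5 highest and lowest levels, the 3 largest and smallest spreads and every gene without overlap; other genes were named for their role, position or library pattern after their values had been seen. The genes, lists and classes of protein (from mammalian structures) were chosen with earlier results of these data known. Alternatives were another pseudocount, filter, scaling, variance model, a replicate term and leaving out each library.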

Additional observations from a re-analysis of the deposited data

How the results depend on the processing

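The 73 genes gave 0 calls under all 14 alternatives. Their median log2 fold change was -0.02 and became -0.153 with median-ratio scaling, while that of all genes became 0.00. Leaving out 1 library gave -0.115 (without control 2) to 0.017 (without control 1). The difference from all genes, -0.15, was -0.023 with the length correction, -0.029 when no filter was applied, since many undetected genes then enter the median of all genes at 0, and -0.302 to -0.033 when 1 library was left out. The ratio of summed levels, 0.951, ran from 0.865 with median-ratio scaling to 1.0 without control 1. The count of genes at an unadjusted p under 0.05, 1, became 5 with the length correction, 3 with an intensity trend in limma, 3 with no filter, 9 without control 2 and 0 without control 3. The 5 genes with the most negative and the 5 with the most positive fold changes kept their direction under 13 alternatives each, with *mRpL14* from -0.73 to -0.48 and *mRpL1* from 0.17 to 0.36. These genes were picked as the extremes of the same libraries, so a kept direction is no independent support. The filters, the intensity trend and the replicate block leave a gene's fold change as it is and could not change its direction. The deviations of same-numbered libraries from their group means had r = -0.0259, -0.353 and 0.159 over 8051 genes. Differently numbered libraries gave r from -0.388 (control 3 and KO 1) to 0.472 (control 3 and KO 2). With 3 libraries per group these values cannot decide whether the numbers pair libraries. The replicate block cannot move a fold change in this balanced design, so the members' median of -0.024 was fixed in advance. With the block 0 members were called and their lowest adjusted p was 0.952 by limma. The deposited TPM keep no depth, so the part of counting error in the spread was not estimated.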
